A study of Mus musculus with 14 samples.

Results

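The genes described here drive or brake the cell division cycle. They are 44 genes in 3 role groups: 15 genes of G1 and of the Rb and E2F families, 14 genes of DNA replication and 15 genes of mitosis. They were taken by name, as all non-control probes that carry 1 of these names in the array design, which gave 61 of the 55681 probes and 44 of the 36406 gene names on the array. RNA came from satellite cells, the stem cells of skeletal muscle, which were sorted from mouse muscle as integrin alpha 7 and CD34 positive cells that lacked CD31, CD45, CD11b and Sca1. It was amplified and hybridised to 14 Agilent arrays with the dye Cy3, 1 sample per array. The C57BL/6 groups were Young (3 arrays, mice of 2, 2 and 3 months), Old (3 arrays, 22, 23 and 24 months) and Geriatric (2 arrays, 30 and 29 months). The other groups were SAMR1, a senescence-resistant strain, and SAMP8, a senescence-prone strain, with 3 arrays each from mice of 12 months. All mice are labelled male, and the Geriatric arrays carry the numbers 1 and 3, with no number 2 analysed here. The study asks how the resting state of these cells changes with age and in a strain that ages early.

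In a resting cell the pocket proteins Rb1, Rbl1 and Rbl2 hold E2F transcription factors at the promoters of cell cycle genes and keep them silent. D cyclins with Cdk4 or Cdk6, and then cyclin E with Cdk2, phosphorylate the pocket proteins, which frees the activating E2F factors and turns on the genes of DNA replication. Rbl2 and E2f4 also form the repressor complex DREAM, which binds the CHR element of mitotic promoters in resting cells. Most adult satellite cells rest outside the cycle until muscle is injured.

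Levels below are log2 signals relative to each array's 75th percentile, so they compare a gene between arrays and not genes with each other. Between 77.1% and 88.8% of probes were well above the local background on an array, the scanner software's call that stands for detection here, and 0 spots were saturated. Signal exceeded background by 6.1 to 8.3 times at the median. Outlier spots numbered 94 to 255 on an array, except 969 on Geriatric 1. All 12 satellite cell markers were detected on all 14 arrays. Itgam, which encodes the CD11b used to gate cells out, nevertheless lay at 7.42 to 8.7 on every array. Sex-linked transcripts did not follow the labels. Xist averaged 5.69 on Young and 5.26 on Old arrays and was detected on 0 of 2 Geriatric arrays, while the Y-linked Ddx3y, Uty and Kdm5d were detected on both Geriatric and on no Young or Old array; the probe for Eif2s3y was detected on all 14. Geriatric mice therefore differ from Young and Old mice in this respect too, and age cannot be told apart from it in any Geriatric comparison. The labels call the samples biological replicates. In bulk RNA, fewer dividing cells and less RNA of these genes per cell cannot be told apart.

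Promoter sequence shows how the role groups differ in the elements through which E2F factors and DREAM act. RefSeq promoters (build GRCm38.p6, 250 bases before to 50 after the start) were found for 34 of the 44 genes and for 27025 genes in all. They were searched on both strands for the E2F octamer (TTTCCCGC, TTTCGCGC, TTTGCCGC or TTTGGCGC), the CHR hexamer (TTTGAA or TTCGAA) and the CCAAT box (CCAAT). The 6 stretches below run from 210 bases before the start to the base before it, on the gene's strand, with matches in capitals. They are those of Cdk1 (chr10:69352913-69353122, minus strand) and Mki67 (chr7:135716380-135716589, minus), the mitosis genes that fell from Old to Geriatric mice, of Mcm6 (chr1:128359706-128359915, minus) as a replication gene, and of Rrm2 (chr12:24708044-24708253, plus), Ccne1 (chr7:38107491-38107700, minus) and Rbl2 (chr8:91069847-91070056, plus), on which later comparisons turn.
Cdk1: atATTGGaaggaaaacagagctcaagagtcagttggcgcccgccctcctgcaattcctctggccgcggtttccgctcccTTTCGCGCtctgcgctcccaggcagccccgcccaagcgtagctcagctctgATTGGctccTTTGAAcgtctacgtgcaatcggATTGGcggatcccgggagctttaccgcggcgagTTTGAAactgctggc
Mki67: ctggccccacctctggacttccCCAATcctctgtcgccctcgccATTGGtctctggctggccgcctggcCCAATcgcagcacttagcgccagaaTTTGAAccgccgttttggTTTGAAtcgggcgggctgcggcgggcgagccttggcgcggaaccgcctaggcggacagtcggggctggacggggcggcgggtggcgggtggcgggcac
Mcm6: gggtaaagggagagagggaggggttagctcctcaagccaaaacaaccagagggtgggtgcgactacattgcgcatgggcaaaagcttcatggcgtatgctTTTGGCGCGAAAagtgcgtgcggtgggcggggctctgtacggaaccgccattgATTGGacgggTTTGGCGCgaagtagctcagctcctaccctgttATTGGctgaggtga
Rrm2: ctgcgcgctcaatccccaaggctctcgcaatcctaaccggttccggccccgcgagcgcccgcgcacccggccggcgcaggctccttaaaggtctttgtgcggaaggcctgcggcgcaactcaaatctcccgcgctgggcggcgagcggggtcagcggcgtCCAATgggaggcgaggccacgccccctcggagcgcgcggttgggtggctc
Ccne1: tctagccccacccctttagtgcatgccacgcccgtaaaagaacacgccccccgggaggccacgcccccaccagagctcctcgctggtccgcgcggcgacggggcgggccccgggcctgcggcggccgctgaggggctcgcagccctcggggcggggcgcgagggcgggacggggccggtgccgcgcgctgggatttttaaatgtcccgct
Rbl2: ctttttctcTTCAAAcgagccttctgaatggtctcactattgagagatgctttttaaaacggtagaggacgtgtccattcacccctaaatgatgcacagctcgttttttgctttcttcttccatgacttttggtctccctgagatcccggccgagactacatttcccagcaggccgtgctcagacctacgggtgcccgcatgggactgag
Cdk1 held an E2F octamer that began at base -131, CHR hexamers at -71 and -15 and 3 CCAAT boxes. Mki67 held CHR hexamers at -116 and -98 and 3 CCAAT boxes, and no octamer. Mcm6 held E2F octamers at -110, -106 and -47, of which the pair at -110 and -106 shares bases on opposite strands. Rrm2 held a CCAAT box at -50, Rbl2 a CHR hexamer on the other strand at -201, and Ccne1 none of these letters in the whole window.

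Over the whole window the E2F octamer was present in 6 of 12 replication genes (50%), 4 of 10 G1 genes (40%) and 1 of 12 mitosis genes (8.3%), against 2.6% of all genes. The CHR hexamer was present in 10 of 12 mitosis genes (83.3%), 3 of 10 G1 genes (30.0%) and 2 of 12 replication genes (16.7%), against 21.7% of all genes. The CCAAT box was found in 11 of 12 mitosis genes (91.7%), 8 of 12 replication genes (66.7%) and 4 of 10 G1 genes (40%), against 41.1% of all genes. In the 250 bases before the start alone, the CHR share of the mitosis genes was 58.3% and that of all genes 19.6%. A match describes the letters and not binding.

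**Figure D1:**
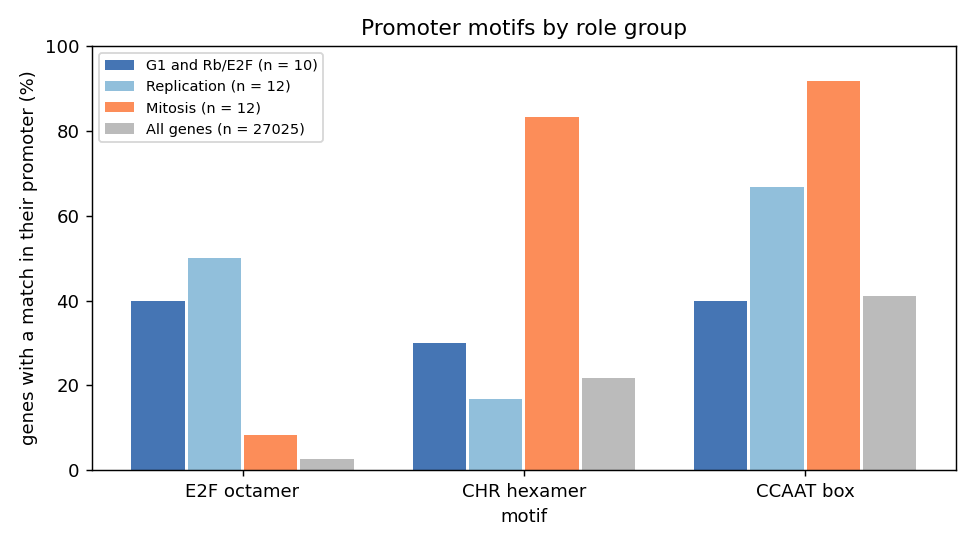
Share of genes with a match to the E2F octamer, the CHR hexamer or the CCAAT box in the RefSeq promoter (y axis, percent) for G1 and Rb/E2F genes (n = 10), replication genes (n = 12), mitosis genes (n = 12) and all genes (n = 27025). The octamer bar is tallest for replication genes (50%) and the CHR bar for mitosis genes (83.3%).

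Of the 44 genes, 41 were measured, since Ccne2 (cyclin E2) and Aurkb (aurora kinase B) were detected on 0 arrays and Bub1 (a spindle checkpoint kinase) on 2 arrays, too few to be kept. This left 14 G1, 14 replication and 13 mitosis genes. A gene counted as detected on an array where any of its probes was. On C57BL/6 arrays 38 to 41 of the 44 genes were detected, on SAMR1 arrays 35 or 36 and on SAMP8 arrays 34 to 36. The gap lay in mitosis: 11 to 14 of its 15 genes were detected on C57BL/6 arrays and 9 or 10 on SAMR1 and SAMP8 arrays, while 12 to 14 of the 14 replication genes were detected on every array. Top2a (the topoisomerase that untangles replicated DNA), Bub1b (a spindle checkpoint kinase) and Ccna2 (cyclin A2) were detected on no SAMR1 or SAMP8 array. Kif11 (the motor that separates spindle poles) was detected on no SAMR1 and 2 SAMP8 arrays. Ccna2 was detected on 4 of 14 arrays (Young 1, Old 3 and both Geriatric) and was kept through the Geriatric arrays alone. It is the mitosis gene that was higher in Geriatric mice, by 0.89 against Young and 0.44 against Old mice, without passing.

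**Figure D2:**
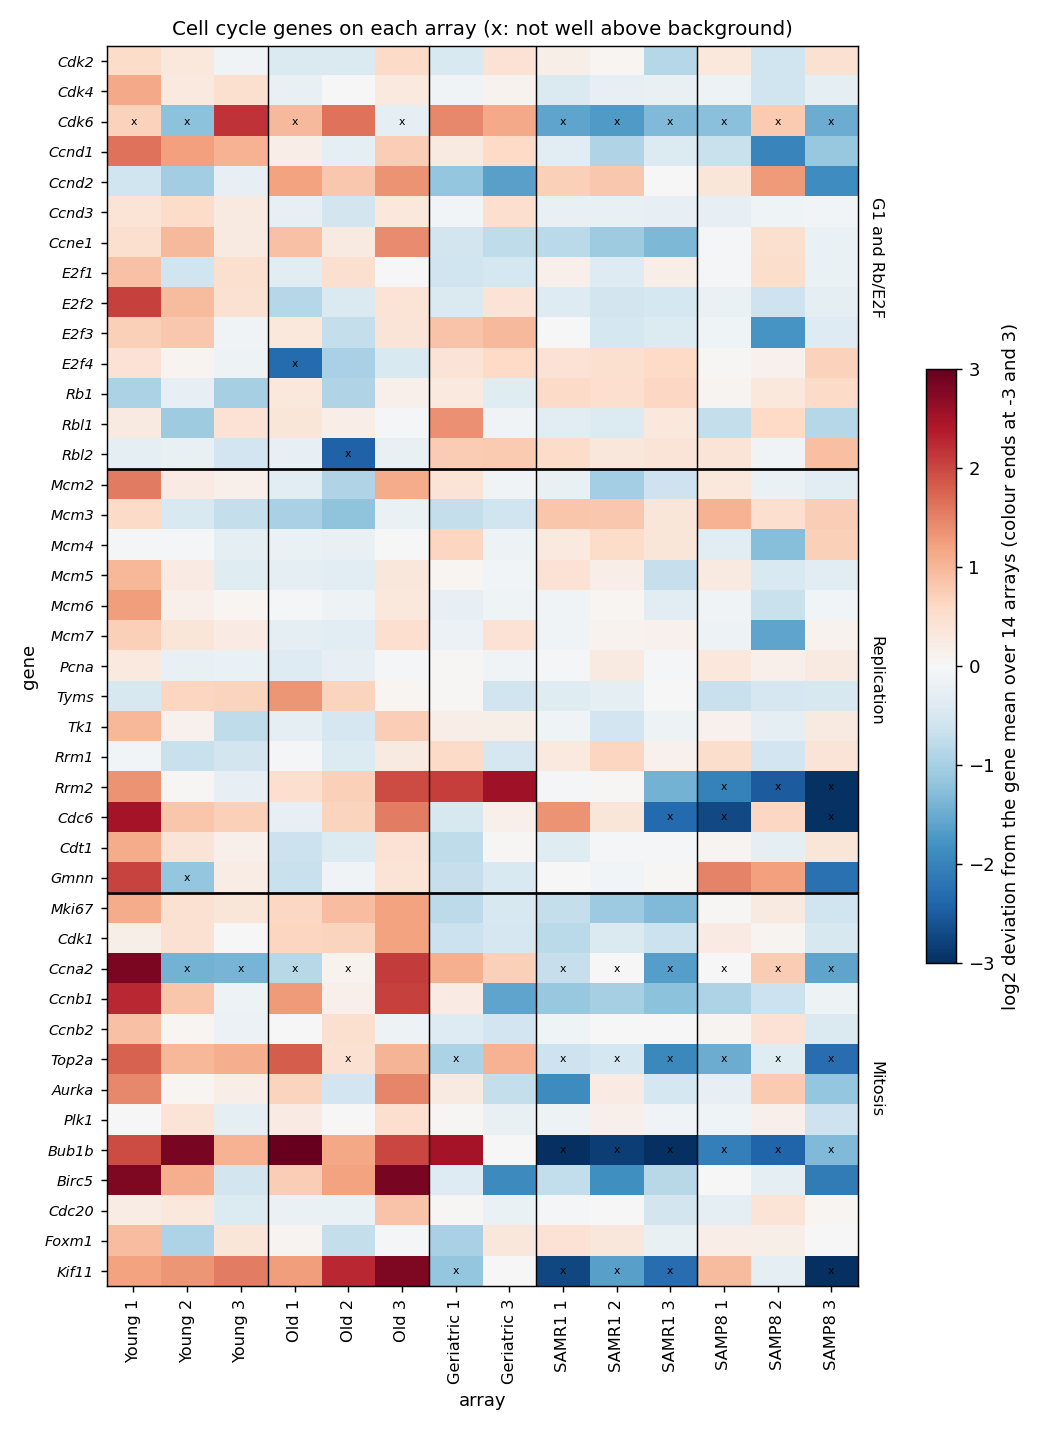
Log2 deviation of each of the 41 measured genes (rows, by role) from its own mean over 14 arrays (columns). Crosses stand where no probe of the gene was well above background. Young 1 and Old 3 are red over most mitosis rows. Crosses fill the SAMR1 and SAMP8 columns of Top2a, Bub1b, Ccna2 and Cdk6 and most of those of Kif11.

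A pair of arrays stood apart from the rest of their groups. Young 1 was the highest array for 16 of the 41 genes (39%) and for 7.98% of all genes, and Old 3 for 10 of the 41 (24.4%) and 5.99% of all genes. Averaged over the mitosis genes, Young 1 lay 1.35 above the gene means on the log2 scale, against 0.5 and 0.12 on Young 2 and Young 3. Old 3 lay 1.37 above them, against 0.76 and 0.45 on Old 1 and Old 2. The Geriatric arrays lay at -0.09 and -0.31, the SAMR1 arrays between -1.12 and -0.66 and the SAMP8 arrays between -1.07 and -0.07. Birc5 (survivin, of the chromosomal passenger complex) shows this split within a group, at 0.81, -0.90 and -2.53 on the Young arrays. The replication genes averaged 0.91 on Young 1 and 0.53 on Old 3 and between -0.47 and 0.13 on the other 12 arrays. Several changes below are therefore also given without Young 1 or Old 3.

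**Figure D3:**
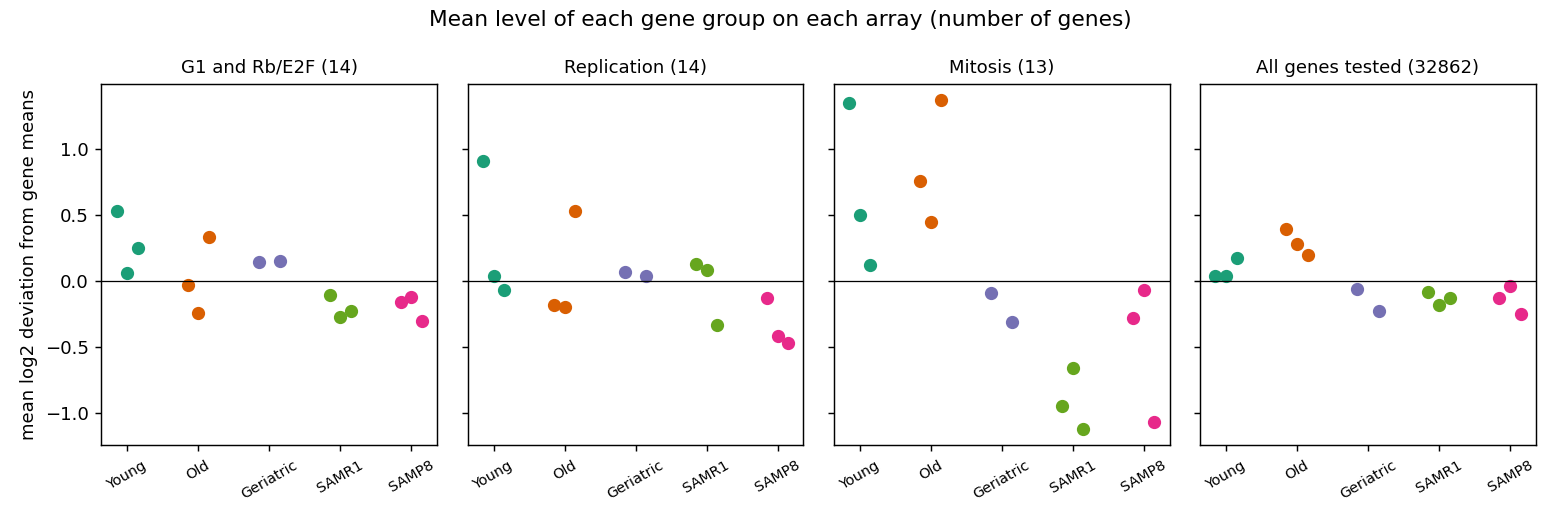
Mean log2 deviation from the gene means (y axis) on each array (points, by group) for the 3 role groups and for all genes tested, with the number of genes in brackets. Young 1 and Old 3 are the highest points of the mitosis panel, at 1.35 and 1.37.

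Between Young and Old mice none of the 41 genes passed the test in limma, where the background is 1.44% of all 32862 genes tested. At an unadjusted p below 0.05 there were 7 genes, 6 of them in the G1 group. The Young and Old arrays did not overlap for 6 genes (14.6%), against 21.5% of all genes. Values were lower in Old for 9 of 14 G1 and 11 of 14 replication genes, and higher for 9 of 13 mitosis genes (7 of 13 with quantile normalization). The median change was -0.14 on the log2 scale, against 0.06 over all genes. Young 1 carried much of this: without it the median was 0.11, 8 of 14 replication genes were lower, and all 13 mitosis genes were higher in Old, whereas without Old 3 only 5 of 13 were. E2f4 passed without Old 3 (adjusted p = 0.038) and Ccnd2 without SAMP8 3 (0.0323).

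Between Young and Geriatric mice none of the 41 genes passed either, where the background is 4.19%, and 10 genes had an unadjusted p below 0.05. Arrays of the groups did not overlap for 15 genes (36.6%), against 44.2% of all genes. Mitosis genes lay lower in Geriatric mice in 12 of 13 cases, with a median of -0.79, and in 12 of 13 with a median of -0.70 without Young 1. With the authors' deposited table of log2 values the median was -0.38. The median over all 41 genes was -0.5 and that over all genes tested -0.18. The nearest to the threshold was Mki67 (the Ki-67 protein of dividing cells), with an adjusted p of 0.0529. Without Young 1, 1 gene passed, Rrm2 (0.0495), and Mki67 passed without SAMP8 2 (0.0495) and without SAMP8 3 (0.0367).

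Between Old and Geriatric mice 6 of the 41 genes passed (14.6%), where the background is 20% of all genes and 17.2% of the 18121 genes with symbols, so the share called lay below that among all genes. Upward calls numbered 2 (background 5.52%) and downward calls 4 (background 14.4%), and arrays of the groups did not overlap for 13 genes (31.7%, against 54.9% of all genes). Cdk1 (the kinase that starts mitosis), Mki67, Ccne1 (cyclin E1) and Ccnd2 (cyclin D2) fell, and E2f4 (a repressive E2F factor) and Rbl2 (the pocket protein p130) rose. By role these were 4 of 14 G1 genes, 0 of 14 replication genes and 2 of 13 mitosis genes. Mitosis genes were lower in Geriatric mice in 12 of 13 cases with a median of -0.98, while replication genes had a median of 0.12 and G1 genes of 0.24. The scaling of the arrays moved these medians. With quantile normalization the median over all genes went from -0.22 to 0.03 and that of the mitosis genes to -0.27, with 11 of 13 still lower. The count of 6 fell to 2 without Geriatric 1 (Cdk1 and Ccne1) and to 2 without Geriatric 3 (Cdk1 and Mki67).

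Markers of satellite cells and of other cell types were read in the same comparison, where 20% of all genes were called. Of 12 leukocyte markers, 10 were lower in Geriatric than in Old mice and 2 passed (16.7%; Lyz2 and C1qb). Their summed linear level, relative to the 75th percentile, was 172 to 179 on Geriatric, 239 to 389 on Old and 263 to 366 on Young arrays. Itgam is so bright that it makes up nearly all of this sum on the Geriatric arrays, and it did not pass. The mean log2 deviation, which weighs the 12 markers alike, was -0.54 to -0.22 on Geriatric arrays. It was -0.1 to 1.36 on Old and 0.05 to 0.6 on Young arrays. Of the 12, 9 or 10 were detected on Geriatric arrays and 10 to 12 on Old arrays. Of 12 satellite cell markers 3 rose (25%; Myf5, Spry1 and Heyl), and 1 of 9 mesenchymal markers (11.1%; Dpt) rose, while 1 of 8 muscle fibre markers (12.5%; Mylpf) and 1 of 5 red cell markers (20%; Slc4a1) fell. None of 10 endothelial and 8 mural markers passed here, though the mural markers Pdgfrb and Abcc9 passed against Young mice, upward and downward, in both Old and Geriatric mice. The part of these changes in the 6 calls was not tested.

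**Figure D4:**
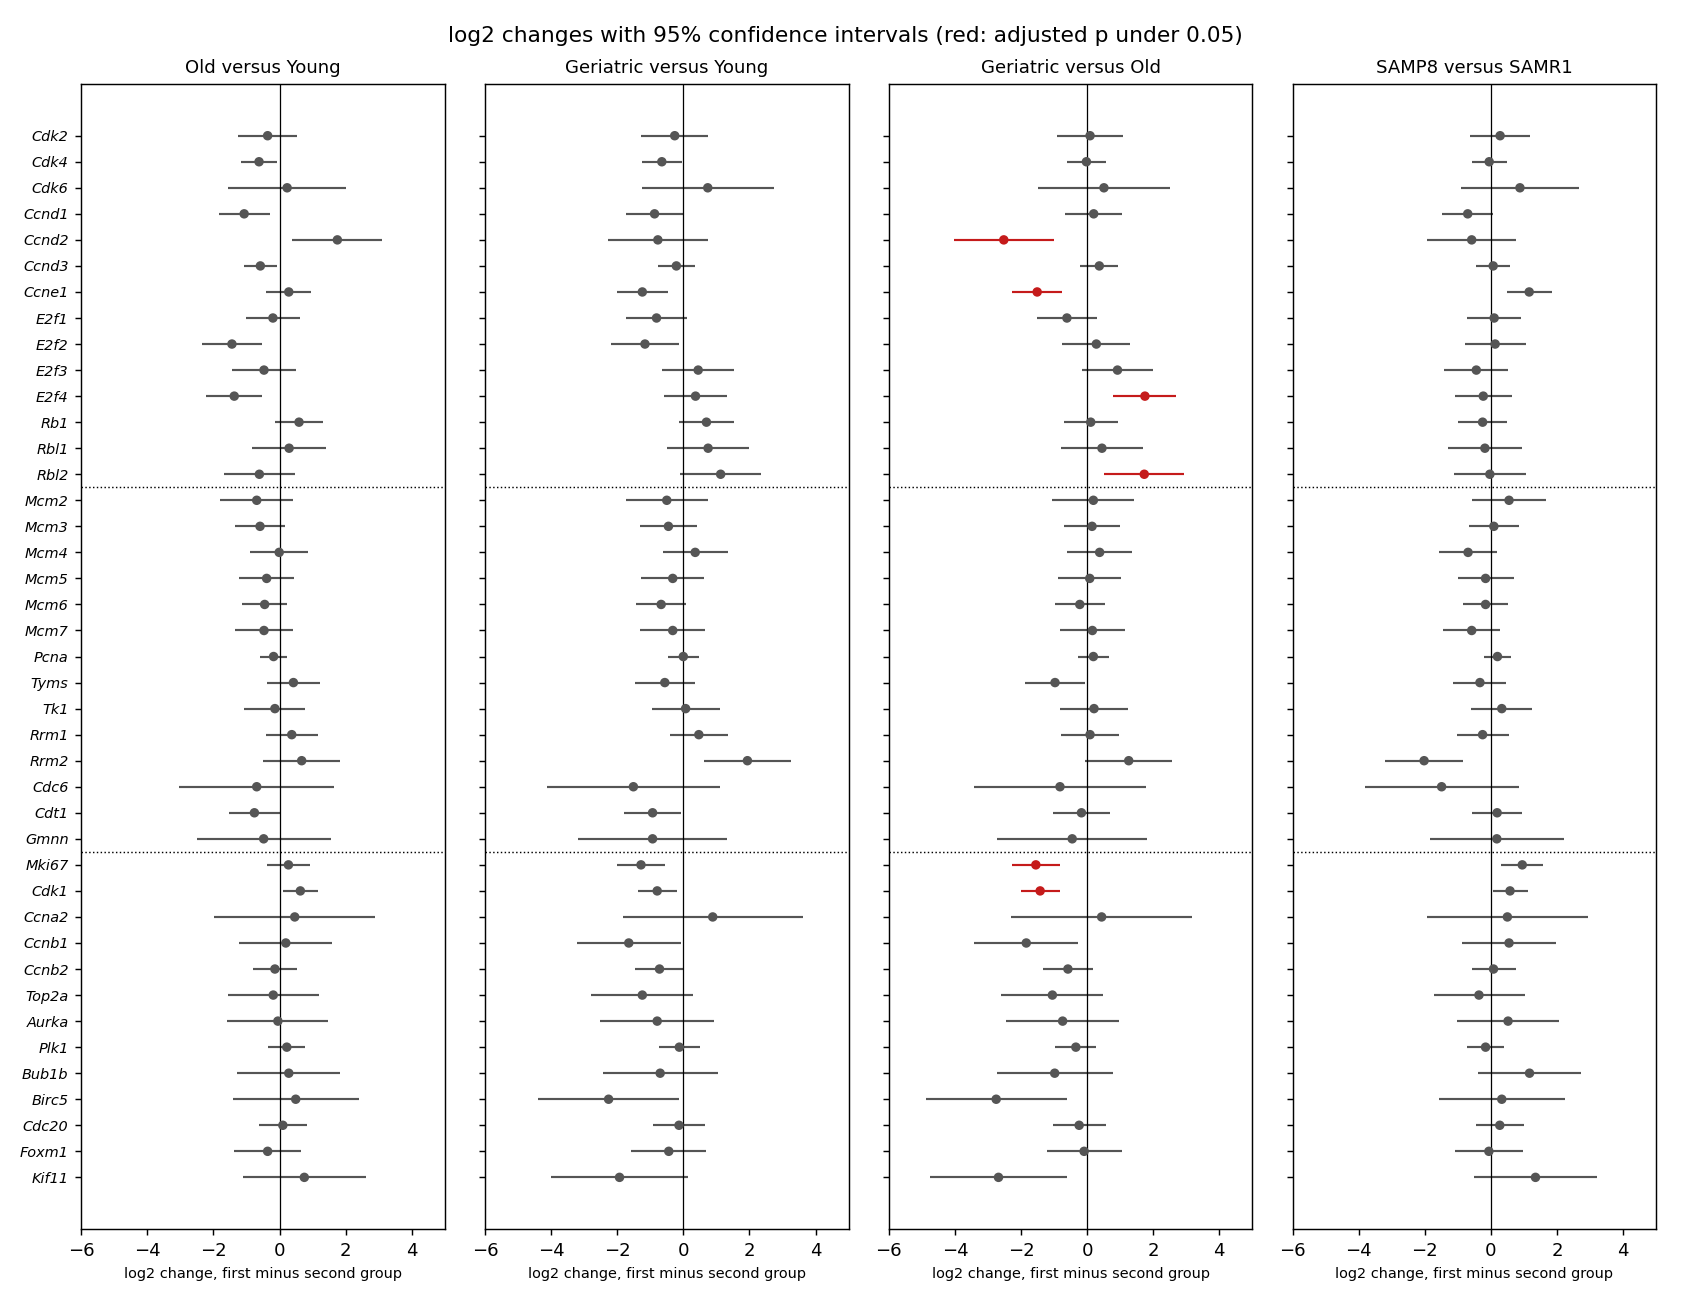
Log2 change with its 95% confidence interval (x axis) for the 41 genes (y axis, by role, dotted lines between roles) in 4 comparisons, with red for an adjusted p under 0.05. The 6 red genes are all in the Geriatric versus Old panel, where 12 of 13 mitosis genes lie left of 0.

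Between the strains SAMP8 and SAMR1 none of the 41 genes passed, where the background is 0.453%, and 4 had an unadjusted p below 0.05: Rrm2, Ccne1, Mki67 and Cdk1. The arrays did not overlap for 6 genes (14.6%), against 13.1% of all genes. Mitosis genes were higher in SAMP8 in 10 of 13 cases with a median of 0.5, which is the value of Ccna2. Ccna2, Top2a and Bub1b were well above background on no SAMR1 or SAMP8 array, and Kif11 on no SAMR1 array. The signs of these genes are therefore not fixed, which limits the counts and medians here. The slides differed. On slide 1, with 2 SAMR1 arrays and SAMP8 2, all 13 were higher and the median was 0.81. On slide 2, with SAMR1 2 alone against 2 SAMP8 arrays, 6 of 13 were higher and the median was -0.12. Without SAMP8 2 the median was 0.08 and without SAMP8 3 it was 0.8. The median over the 41 genes was 0.08 and that over all genes 0.01. All 10 endothelial markers were lower in SAMP8 on average and none passed. Their summed level was 85.9, 92.2 and 43.7 on the SAMR1 arrays and 67.9, 73.8 and 18.4 on the SAMP8 arrays, against 10.5 to 18.9 on the C57BL/6 arrays, so that SAMP8 3 alone lay below the SAMR1 range. SAMP8 3 was also the lowest SAMP8 array in mitosis genes, at -1.07 against -0.28 and -0.07. The part of this in the cell cycle values was not tested.

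The G1 cyclins differed from each other in pattern. Ccnd1 (cyclin D1), the D cyclin that growth signals induce, stood at 4.90, 4.50 and 4.33 on the Young arrays, 3.49, 3.02 and 4.02 on the Old, 3.54 and 3.87 on the Geriatric, 2.93, 2.38 and 2.86 on the SAMR1 and 2.62, 1.31 and 2.14 on the SAMP8 arrays. Its Young arrays all lay above its Old arrays, and every SAMR1 and SAMP8 array lay below every C57BL/6 array. The change from Young to Old was -1.07 ± 0.35 (SE; adjusted p = 0.153 in limma) and from Young to Geriatric -0.87 ± 0.39 (0.223), and neither passed.

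Ccnd2 (cyclin D2) stood at -2.27, -2.71 and -1.90 on the Young arrays, -0.46, -0.85 and -0.32 on the Old, -2.83 and -3.30 on the Geriatric, -0.94, -0.86 and -1.65 on the SAMR1 and -1.29, -0.38 and -3.53 on the SAMP8 arrays. Its Old arrays lay above all Young and Geriatric arrays, and SAMP8 arrays spread over most of the whole range. It averaged -3.06 ± 0.33 (SD, n = 2) in Geriatric and -0.54 ± 0.27 (SD, n = 3) in Old mice, a 5.74-fold lower level (log2 change -2.52 ± 0.69, adjusted p = 0.0273). The call was lost when any Old or Geriatric array was left out, with adjusted p between 0.0505 and 0.161, and the change was -2.67 within slide 2. Against Young mice, Old mice were 3.36-fold higher without passing (1.75 ± 0.62, adjusted p = 0.184). Ccnd3 (cyclin D3) spanned 2.41 to 3.52 over the 14 arrays and did not pass either.

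Ccne1 (cyclin E1), the partner of Cdk2 at the start of S phase, stood at -1.38, -0.89 and -1.58 on the Young arrays, -0.99, -1.58 and -0.45 on the Old, -2.40 and -2.63 on the Geriatric, -2.67, -2.92 and -3.22 on the SAMR1 and -1.92, -1.37 and -2.05 on the SAMP8 arrays. Geriatric and SAMR1 arrays were low, and both Geriatric arrays lay below every Young and Old array. Geriatric mice were 2.85-fold lower than Old mice (log2 change -1.51 ± 0.35, adjusted p = 0.0124) and lay -1.24 ± 0.35 from Young mice without passing (adjusted p = 0.0729). SAMP8 arrays lay above SAMR1 arrays without overlap, by 1.16 ± 0.31 (adjusted p = 0.218). Without Geriatric 3 the change from Old had an adjusted p of 0.0992.

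No kinase of G1 passed in any comparison. Cdk4 stood at 4.36, 3.52 and 3.70 on the Young arrays, 2.99, 3.22 and 3.51 on the Old, 3.11 and 3.32 on the Geriatric, 2.78, 2.98 and 3.00 on the SAMR1 and 3.08, 2.62 and 2.92 on the SAMP8 arrays. Young arrays were the highest, and the change from Young to Old was -0.62 ± 0.24 (adjusted p = 0.221) and to Geriatric -0.65 ± 0.27 (0.194). Without Young 1 these were -0.37 and -0.40. Cdk6, which shares the D cyclins with Cdk4, was detected on 4 of 14 arrays (Young 3, Old 2 and both Geriatric), so its values of -8.23 to -4.38 give no order. Like Ccna2, Cdk6 was kept through the Geriatric arrays alone, and it counts in the G1 counts and medians above. Cdk2 spanned -1.49 to -0.06 over the 14 arrays, with wide overlap between groups.

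The pocket proteins differed from each other in pattern. Rbl2 stood at -4.21, -4.14 and -4.50 on the Young arrays, -4.17, -6.36 and -4.14 on the Old, -3.16 and -3.15 on the Geriatric, -3.38, -3.59 and -3.55 on the SAMR1 and -3.54, -4.04 and -3.03 on the SAMP8 arrays. Both Geriatric arrays lay above all Young and Old arrays, and Old 2, where the probe was not well above background, lay far below the others. Geriatric mice averaged -3.16 ± 0.01 (SD, n = 2) and Old mice -4.89 ± 1.27 (SD, n = 3), with a change of 1.73 ± 0.55 (adjusted p = 0.0476). Without Old 2 the change was 1.0 with an adjusted p of 0.054, with normexp background correction it was 0.43, and the call was lost under 17 of the 27 alternatives.

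Rb1, the retinoblastoma protein itself, stood at -2.81, -2.11 and -2.86 on the Young arrays, -1.54, -2.77 and -1.70 on the Old, -1.57 and -2.22 on the Geriatric, -1.29, -1.35 and -1.24 on the SAMR1 and -1.78, -1.55 and -1.30 on the SAMP8 arrays. All SAMR1 and SAMP8 arrays lay within the upper part of its range, and the C57BL/6 groups overlapped, with no change that passed. Rbl1 (p107) ranged from -3.26 to -0.84 and did not pass in any comparison.

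The E2F factors differed from each other. E2f4 stood at -2.77, -3.13 and -3.36 on the Young arrays, -5.52, -4.19 and -3.67 on the Old, -2.80 and -2.62 on the Geriatric, -2.78, -2.73 and -2.62 on the SAMR1 and -3.19, -3.09 and -2.53 on the SAMP8 arrays. The Old arrays were the 3 lowest of all 14, and Old 1 was not well above background. Geriatric mice were 3.36-fold higher than Old mice (log2 change 1.75 ± 0.44, adjusted p = 0.0181), and Old mice lay -1.37 ± 0.39 from Young mice without passing (adjusted p = 0.11). The Geriatric difference from Young mice was 0.37, so the values turn on the Old group. With normexp the change from Old to Geriatric was 0.65. The call was lost without Geriatric 1 (adjusted p = 0.0662) and without Geriatric 3 (0.116).

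E2f2, an activating E2F factor, stood at 2.83, 1.71 and 1.22 on the Young arrays, -0.09, 0.34 and 1.19 on the Old, 0.34 and 1.18 on the Geriatric, 0.38, 0.22 and 0.24 on the SAMR1 and 0.58, 0.15 and 0.51 on the SAMP8 arrays. Young 1 was the highest array, and all Young arrays lay above all Old and Geriatric arrays. The change to Old was -1.44 ± 0.42 (adjusted p = 0.117) and to Geriatric -1.16 ± 0.47 (0.181), and without Young 1 they were -0.99 and -0.71. E2f1, the best known activator, stood at 1.18, -0.30 and 0.80 on the Young arrays, -0.02, 0.78 and 0.31 on the Old, -0.29 and -0.22 on the Geriatric, 0.47, -0.07 and 0.51 on the SAMR1 and 0.24, 0.83 and 0.11 on the SAMP8 arrays. Both Geriatric arrays lay below every Old array and overlapped the Young arrays through Young 2 alone, and no change passed. E2f3 ranged from -2.62 to 0.12 on its brightest probe, with both Geriatric arrays the highest.

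**Figure D5:**
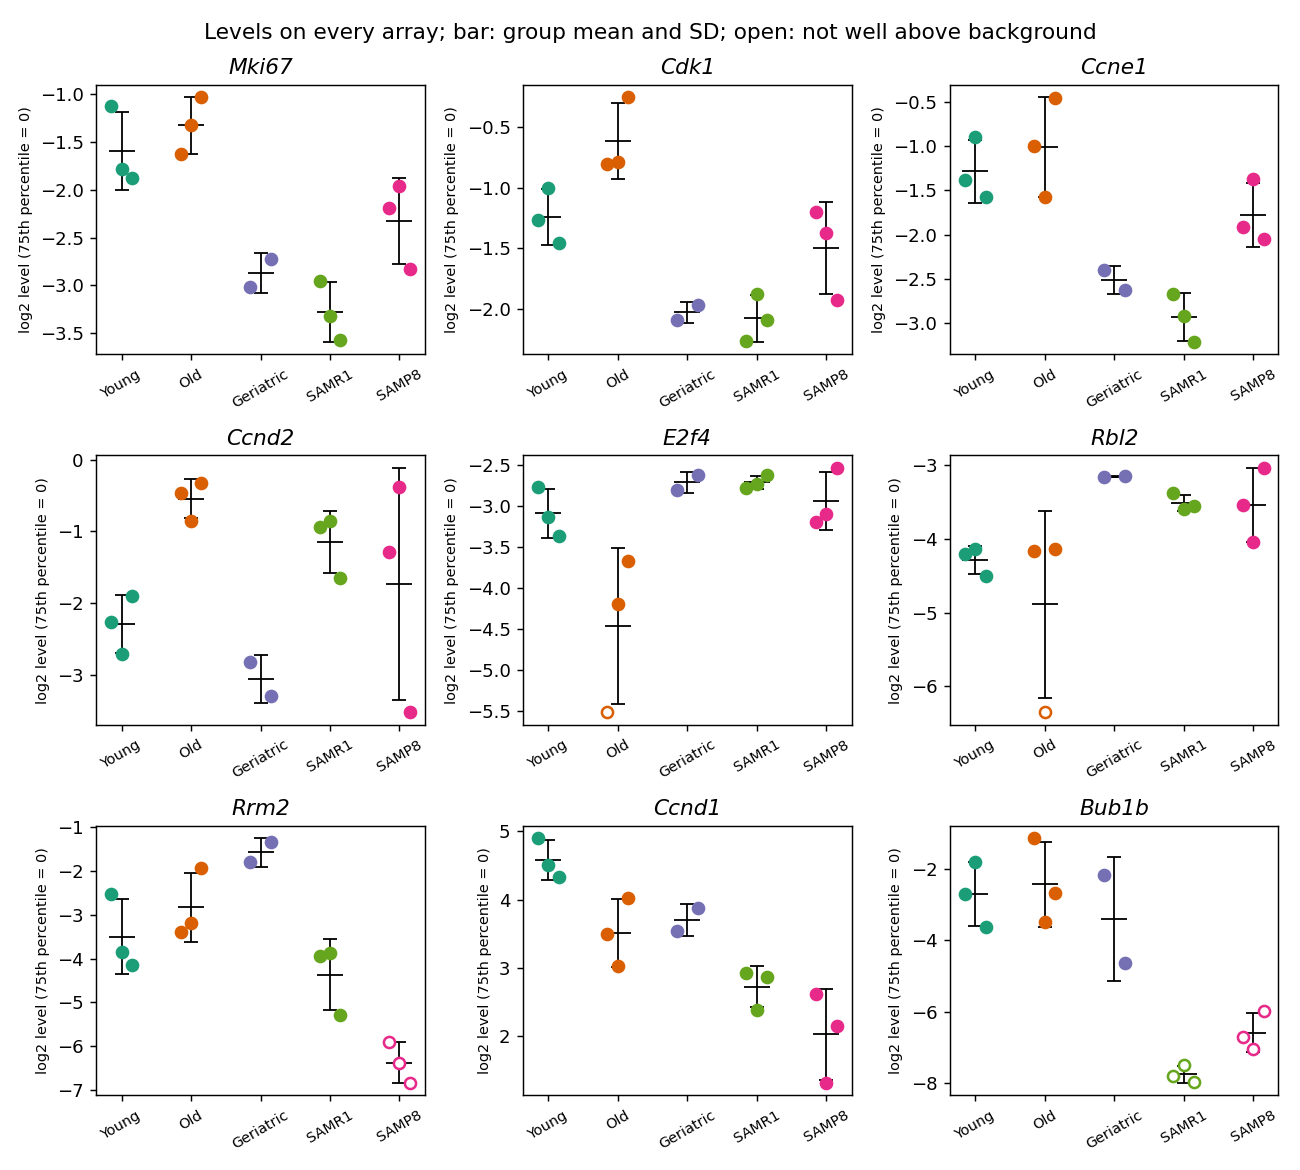
Log2 level relative to the 75th percentile (y axes) on every array (points, open where not well above background) for 9 genes in 5 groups, with bars for the group mean and SD. Mki67, Cdk1 and Ccne1 lie lower on the Geriatric than on the Young and Old arrays, and Bub1b is open on all SAMR1 and SAMP8 arrays.

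Replication genes gave no call in the 4 comparisons. Mcm2, a subunit of the helicase that unwinds origins, stood at 0.74, -0.57 and -0.67 on the Young arrays, -1.15, -1.71 and 0.29 on the Old, -0.41 and -0.92 on the Geriatric, -1.04, -1.84 and -1.44 on the SAMR1 and -0.50, -1.02 and -1.14 on the SAMP8 arrays. Young 1 and Old 3 were the high arrays, and the other arrays of all groups overlapped. Pcna, the clamp that holds DNA polymerases, stood at 0.02, -0.48 and -0.47 on the Young arrays, -0.65, -0.52 and -0.32 on the Old, -0.24 and -0.38 on the Geriatric, -0.33, 0.00 and -0.32 on the SAMR1 and 0.05, -0.12 and 0.01 on the SAMP8 arrays. It spanned less than 1 log2 unit over all 14 arrays. Its change from Young to Old was -0.18 (95% interval -0.6 to 0.24; -0.02 without Young 1) and from Young to Geriatric 0 (-0.47 to 0.47).

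The other Mcm genes did not pass either. On its brightest probe Mcm3 was higher on every SAMR1 and SAMP8 array than on all C57BL/6 arrays but Young 1, with ranges of -0.32 to 0.34 and -1.9 to -0.13. On its second probe these arrays overlapped, with ranges of -1.46 to -0.78 and -1.8 to 0.25. The change of Mcm3 from Young to Old was -0.59 ± 0.35 on the brightest probe (adjusted p = 0.428), and -0.21 without Young 1. Mcm4, Mcm5, Mcm6 and Mcm7 ranged from 0.85 to 2.83, -2.97 to -1.27, -0.55 to 1.38 and -0.46 to 1.84. Cdt1, which loads the helicase with Cdc6, had a difference from Young mice of -0.76 ± 0.35 in Old mice (adjusted p = 0.301) and of -0.93 ± 0.39 in Geriatric mice (0.196), which were -0.47 and -0.64 without Young 1.

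Rrm2, the inducible subunit of the enzyme that makes deoxynucleotides, had the smallest p of the replication genes in Geriatric versus Young and in SAMP8 versus SAMR1. It stood at -2.53, -3.84 and -4.14 on the Young arrays, -3.38, -3.18 and -1.93 on the Old, -1.80 and -1.34 on the Geriatric, -3.93, -3.86 and -5.30 on the SAMR1 and -5.91, -6.39 and -6.84 on the SAMP8 arrays. Geriatric arrays were the highest of all, SAMP8 arrays the lowest, and no SAMP8 array was well above background. Geriatric mice were 3.83-fold higher than Young mice (1.94 ± 0.6, adjusted p = 0.0979), which did not pass; with normexp the change was 1.22 and passed (0.0372). SAMP8 mice were at least 2.48-fold lower than SAMR1 mice, a bound set by the dimmest detected probes (adjusted p = 0.208). Its partner Rrm1, the large subunit, ranged from -2.07 to -0.74, a narrower span. Tyms (thymidylate synthase) had a difference of -0.97 ± 0.41 between Geriatric and Old mice (adjusted p = 0.114), with arrays that did not overlap, and passed without Old 3 (0.0444). Tk1 (thymidine kinase) overlapped in all comparisons of age.

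Among mitosis genes, Mki67 stood at -1.12, -1.78 and -1.87 on the Young arrays, -1.62, -1.32 and -1.03 on the Old, -3.02 and -2.72 on the Geriatric, -2.95, -3.32 and -3.57 on the SAMR1 and -2.19, -1.96 and -2.83 on the SAMP8 arrays. Geriatric and SAMR1 arrays were low and Young and Old arrays high, with no overlap between Geriatric and Young or Old arrays. Geriatric mice were 2.92-fold lower than Old mice (log2 change -1.55 ± 0.33, adjusted p = 0.00874) and lay -1.28 ± 0.33 from Young mice (adjusted p = 0.0529). SAMP8 arrays lay above SAMR1 arrays by 0.95 ± 0.29 (adjusted p = 0.312). Within slide 2 the change from Old to Geriatric was -1.54, and without Geriatric 1 it was -1.39 with an adjusted p of 0.0618.

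Cdk1 stood at -1.27, -1.0 and -1.46 on the Young arrays, -0.80, -0.79 and -0.25 on the Old, -2.09 and -1.97 on the Geriatric, -2.27, -1.88 and -2.09 on the SAMR1 and -1.20, -1.37 and -1.93 on the SAMP8 arrays. The Old arrays were the 3 highest, and the Geriatric and SAMR1 arrays lay lowest together with SAMP8 3. Geriatric mice averaged -2.03 ± 0.08 (SD, n = 2) and Old mice -0.61 ± 0.31 (SD, n = 3), a 2.68-fold lower level (log2 change -1.42 ± 0.27, adjusted p = 0.00514). It was -1.51 within slide 2. The changes from Young were 0.63 ± 0.24 in Old (adjusted p = 0.214) and -0.79 ± 0.27 in Geriatric mice (0.128).

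Ccnb1 (cyclin B1), the partner of Cdk1, stood at -0.71, -2.13 and -3.13 on the Young arrays, -1.68, -2.81 and -0.92 on the Old, -2.73 and -4.55 on the Geriatric, -4.11, -3.96 and -4.19 on the SAMR1 and -3.89, -3.60 and -3.12 on the SAMP8 arrays. Young 1 and Old 3 were the highest arrays, and SAMR1 and SAMP8 arrays lay at -3.12 or below. Geriatric mice lay -1.84 ± 0.72 from Old mice without passing (adjusted p = 0.0931), and -1.40 without Old 3. This change passed with normexp (-3.25, 0.000137), the deposited values (-3.11, 0.000316) and the mean of the probes (-3.5, 0.014). The difference of Geriatric from Young mice was -1.65, and -1.01 without Young 1. It passed with normexp (-2.32, 0.00572) and the deposited values (-2.17, 0.00982). The brightest probe of a gene was chosen anew with normexp and with the deposited values. These calls of Ccnb1 may therefore rest on a different probe than the main value. Top2a stood at -3.97, -4.75 and -4.66 on the Young arrays, -3.93, -5.29 and -4.72 on the Old, -6.69 and -4.71 on the Geriatric, -6.36, -6.27 and -7.68 on the SAMR1 and -7.23, -6.10 and -8.03 on the SAMP8 arrays. It was detected on all Young arrays, 2 Old arrays and 1 Geriatric array. Kif11 and Birc5 had the most negative values of the 13 mitosis genes between Old and Geriatric mice, -2.68 ± 0.95 (adjusted p = 0.0676) and -2.75 ± 0.97 (0.0668), and did not pass. Without Old 3 they were -2.33 and -2.12. Kif11 was not well above background on Geriatric 1, so the size of its change is not fixed. Birc5 passed without Young 1 (0.0442) or Young 3 (0.0452), and Kif11 without SAMP8 1 (0.0362) or SAMP8 3 (0.00789). Leaving out these arrays left the log2 changes as they were. Plk1, Cdc20 and Foxm1, which run mitotic entry, exit and transcription, had differences of -0.34, -0.24 and -0.09 between Old and Geriatric mice, and of -0.21, 0.11 and 0 without Old 3.

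Several probes of a gene did not always give the same answer. Of the 41 genes, 13 had more than 1 kept probe, and their probes had opposite signs for 4 genes in Old versus Young, 2 in Geriatric versus Young, 3 in Geriatric versus Old and 4 in SAMP8 versus SAMR1. A dimmer probe of Ccnb1 changed by -5.11 ± 0.95 on the log2 scale from Old to Geriatric mice (adjusted p = 0.00514 over all probes) and by -4.03 ± 0.95 from Young (0.0427), and was well above background on 1 of the 2 Geriatric arrays. A dimmer probe of Cdc6 was well above background on 6 of 14 arrays and on no Geriatric array, so its change has only a bound. It was at least 8.88-fold lower in Geriatric than in Old mice (0.00112) and at least 3.21-fold lower than in Young mice (0.017), where the brightest probe gave log2 changes of -0.82 and -1.51. The call for Ccnb1 and Cdc6 thus differed between their probes. The same holds for the calls of Cdk1 and Mki67 from Old to Geriatric mice. The dimmer Cdk1 probes gave -2.48 (adjusted p = 0.199) and -2.39 (0.208, detected on no Geriatric array), and the dimmer Mki67 probe gave -1.61 (0.447). All of these were downward, but none passed. With the mean of the probes Cdk1 (0.112) and Mki67 (0.202) did not pass either. A second E2f3 probe rose by 1.92 ± 0.4 from Old to Geriatric mice (adjusted p = 0.00859), where the first gave 0.92. The second Ccne1 probe gave -1.43 from Old to Geriatric mice, close to the first, without passing (0.151). In SAMP8 mice it was not well above background and at least 1.64-fold lower than in SAMR1 mice (0.341), opposite to the first.

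The change from Young to Geriatric mice was set against that from SAMR1 to SAMP8 with an interaction term. It passed for 3 of the 41 genes (7.32%), where the background is 1.73%. Ccne1 and Mki67 lay lower in Geriatric than in Young mice and higher in SAMP8 than in SAMR1, with differences between the changes of -2.39 ± 0.47 (adjusted p = 0.0272) and -2.23 ± 0.44 (0.0282). Rrm2 lay higher in Geriatric mice and lower in SAMP8, with a difference of 3.95 ± 0.8 (0.0314) whose size is not fixed, since SAMP8 arrays were not well above background. None of the 3 genes passed without Geriatric 1, without Geriatric 3, without SAMR1 2 or without SAMP8 2. For Old versus Young against SAMP8 versus SAMR1, 0 of 41 passed, 3 had an unadjusted p below 0.05, and the background is 0.371%.

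Other genes of the same pathways came from lists that are wider than the 44, and their counts are read against the 20% of all genes called between Old and Geriatric mice. Of 24 further G1, Rb and E2F genes, 5 rose and 1 fell there (25% called), and none passed in the other comparisons, where 1.44%, 4.19% and 0.453% of all genes did. Mybl2 (B-Myb, which replaces the repressor at mitotic promoters) fell by 2.04 ± 0.43 on the log2 scale (adjusted p = 0.00833). Its levels were -2.21 and -2.09 on Geriatric and -0.15, -0.07 and -0.11 on Old arrays. Lin37, a subunit of DREAM, rose by 1.07 ± 0.24 (adjusted p = 0.0122). The other genes called in this list are not named here, and DREAM genes were not tested as a set.

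Of 39 further replication genes, 3 rose and 1 fell from Old to Geriatric mice (10.3% called, below the 20% of all genes), with none in the other comparisons. Orc6, of the origin recognition complex, rose by 1.35 ± 0.3 (adjusted p = 0.0109) and Pole, the leading strand polymerase, fell by 1.9 ± 0.43 (0.0119). Of 32 further mitosis genes, 2 rose and 3 fell from Old to Geriatric mice (15.6%, also below 20%), and 1 passed in each of the other comparisons. Racgap1, which acts in cytokinesis, fell by 1.98 ± 0.32 (adjusted p = 0.00213) and also fell from Young to Geriatric mice, by 1.33 ± 0.32 (0.0416). Cenpf, a kinetochore protein, was at least 3.07-fold lower (0.00828). Bub3, of the spindle checkpoint, fell from Young to Old mice by 0.84 ± 0.17 (0.0429) and rose from Old to Geriatric mice by 0.89 ± 0.19 (0.0102). Nuf2, of the kinetochore, was at least 21.5-fold lower in SAMP8 than in SAMR1 mice (0.00764).

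CDK inhibitors act on the kinases above. Of the 7 measured, 1 passed between Young and Geriatric mice (14.3%, background 4.19%), 1 between Old and Geriatric mice (14.3%, background 20%) and 2 between the strains SAMR1 and SAMP8 (28.6%, background 0.453%). Cdkn2a, which encodes p16 and Arf, stood at -4.17, -3.95 and -4.19 on the Young, -3.48, -3.30 and -3.42 on the Old, -2.92 and -3.28 on the Geriatric, -2.93, -3.34 and -2.80 on the SAMR1 and -2.05, -1.47 and -2.04 on the SAMP8 arrays. It rose from Young to Geriatric mice by 1.0 ± 0.24 (adjusted p = 0.0427) and from SAMR1 to SAMP8 by 1.17 ± 0.22 (0.0456), and in both cases the arrays did not overlap. Cdkn2b (p15) rose from SAMR1 to SAMP8 by 1.70 ± 0.28 (0.0214) and Cdkn2c (p18) from Old to Geriatric mice by 2.16 ± 0.56 (0.0205). Cdkn2a thus passed upward in both comparisons. The values of Mki67 and Ccne1 lay lower in Geriatric than in Young mice and higher in SAMP8 than in SAMR1 mice, but passed in neither comparison. The second Ccne1 probe went the other way between the strains.

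The strains were not a planned comparison, and this description was chosen after the values were seen. All 6 SAMR1 and SAMP8 arrays lay below all 8 C57BL/6 arrays for 2 of the 41 genes, where the background is 2.17% of all genes, and above them for 0 genes, where it is 1.96%. Bub1b lay between -7.97 and -5.98 on SAMR1 and SAMP8 arrays, where it was not well above background, and between -4.64 and -1.13 on C57BL/6 arrays. Ccnd1 lay between 1.31 and 2.93 against 3.02 to 4.9. Mcm3 had the largest mean difference in the other direction, 0.02 against -1.23, on its brightest probe. Its second probe did not show this. That probe averaged -1.1 on SAMR1 and -1.16 on SAMP8 arrays, against -0.45 on Young, -1.06 on Old and -0.8 on Geriatric arrays. Age differs between these groups as well as strain, so strain cannot be told apart from it. Marker levels differed as well. The mean deviation of the mesenchymal markers was 0.39 to 1.11 on SAMR1 and SAMP8 arrays and -0.85 to 0.16 on C57BL/6 arrays, and that of the mural markers 0.25 to 1.05 and -1.15 to -0.19, both without overlap. Endothelial and red cell markers were higher on most SAMR1 and SAMP8 arrays. The summed sex-linked level was 2.3 to 3.47 on SAMR1 and SAMP8 arrays against 34.2 to 58.3 on Young and Old arrays. On the Geriatric arrays, also C57BL/6, it was 2.31 and 2.89, within the SAMR1 and SAMP8 range. The part of these in the strain differences was not tested.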

How the data were processed

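Per the file headers, the authors' scanner files came from Agilent Feature Extraction 10.7.3.1 and hold each spot's background-subtracted processed intensity, with probe positions on mm9. The deposited table of log2 values, an alternative here, equalled normexp correction (offset 50) with quantile normalization to within 0.000117. Its direction follows the intensity and each column's median was 7.8.

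Control and outlier spots were left out, replicate spots averaged, and log2 intensity was centred on each array's 75th percentile. Probes had to be well above background on 2 or more arrays of 1 group (49916 remained), and a gene was read from its kept probe with the highest mean (32862 genes). Tests were run in R 4.3.3 with limma 3.58.1 (eBayes after lmFit, 1 coefficient per group over 14 arrays, two-sided, Benjamini-Hochberg adjusted p under 0.05 over all genes). The fit had 2.36 prior degrees of freedom and 515 missing values from outlier spots, and was tested on simulated data. Errors are SE with n = 3 arrays a group and n = 2 for Geriatric, numbers that limit precision. Bounds ("at least") set the bright group's mean against the dim group's lowest detected signal on each array, or the probe's own where higher.

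The 44 genes and all lists were chosen with earlier results of these data known. Named with values were genes that passed, the 2 with the smallest p per role and comparison, and 13 fixed genes, and of the other lists at most 4 that passed per list and comparison. Birc5, Kif11, Plk1, Cdc20, Foxm1 and the dimmer probes of genes were added after their values were seen. Slides were read from the deposited array names, and the scan times in the headers divide the arrays alike. By this reading Young 2, Old 1 and 3, both Geriatric, SAMR1 2 and SAMP8 1 and 3 lie on slide 2 and the others on slide 1.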

Additional observations from a re-analysis of the deposited data

Results flagged for a closer look

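The change from Young to Geriatric mice differed from that from SAMR1 to SAMP8 for 3 genes. This is by the test of the difference itself (limma, adjusted over all genes). Age cannot be told apart from the sex-linked difference of the Geriatric mice here. The difference between the log2 changes was -2.39 for Ccne1 (adjusted p = 0.0272, between 0.0146 and 0.629 over 27 alternatives). It was -2.23 for Mki67 (adjusted p = 0.0282, between 0.0161 and 0.597). For Rrm2 it was 3.95 (adjusted p = 0.0314, between 0.0155 and 0.376), on SAMP8 arrays that were not well above background. Over the 27 alternatives the difference lay between -2.56 and -0.62 for Ccne1, between -3.03 and -1.46 for Mki67 and between 1.66 and 4.78 for Rrm2. The value nearest 0 was that with the mean of the probes for Ccne1, whose second probe was opposite between SAMP8 and SAMR1, that with the deposited log2 values for Mki67, and that with normexp for Rrm2.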

How the results depend on the processing

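Of the alternatives run on the genes named by the rule, 717 values kept their sign and side of the threshold, 67 lost a call and 10 gained one. The sign changed in 1, Ccne1 between SAMP8 and SAMR1, -0.35 with the mean of its probes. Leaving out an array of a group outside a comparison cannot move its log2 change, and many of these results had no call to lose. The 717 therefore do not measure robustness. From Old to Geriatric mice, Rbl2 lost its call in 17 of 27 alternatives, Ccnd2 in 7, E2f4 in 4, Mki67 in 3 and Cdk1 and Ccne1 in 2 each. In that comparison the count of 6 was 1 within slide 2 and 3 with the compared groups alone, and 2 to 7 with 1 array left out. From Young to Geriatric mice the count of 0 was 3 with normexp, 1 with the deposited values, 1 with the strict filter and 2 with every probe tested (0 to 1 with 1 array left out). From Old to Geriatric mice normexp added calls for Ccnb1 (-3.25, adjusted p = 0.000137 in limma), Kif11 (0.00381) and Tyms (0.0345) and lost that for Rbl2. The deposited values added Ccnb1 (-3.11, 0.000316), Kif11 (0.0456) and Rrm2 (0.0485) and lost none. For Ccnb1 both calls may rest on another probe, since the brightest probe was chosen anew. Old versus Young gave 0 to 1 and SAMP8 versus SAMR1 0 to 0 with 1 array left out. For the difference between the Geriatric and SAMP8 changes the count of 3 was 5 with normexp, 1 with the mean of probes, 0 with the replicate block, 0 within slide 2 and 0 to 4 with 1 array left out; at an unadjusted p below 0.05 the replicate block had 6 and slide 2 had 4. For the Old difference it was 0 to 0.

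Over all genes, Old versus Young gave 472 calls, and 1040 with normexp, 777 with the deposited values, 257 among symbols, 729 with slide as a block, 237 with the replicate block, 43 with the compared groups alone, 0 within slide 1 (4900 at an unadjusted p below 0.05), 0 within slide 2 (2721) and 85 to 793 with 1 array left out. Geriatric versus Young gave 1377, and 638 among symbols, 864 with slide as a block, 869 with the replicate block, 2 within slide 2, 422 with the compared groups alone and 414 to 1537. Geriatric versus Old gave 6561, and 2928 among symbols, 1553 within slide 2, 3001 with the compared groups alone and 1989 to 7309. SAMP8 versus SAMR1 gave 149, and 264 with normexp, 229 with the deposited values, 86 among symbols, 47 with the compared groups alone, 0 within slide 1 (4386), 0 within slide 2 (1619) and 56 to 250. Quantile normalization moved the share of calls that were higher from 83.3% to 67.8% in Old versus Young and from 27.6% to 46.9% in Geriatric versus Old, and the deposited values moved it from 37.7% to 49.7% in Geriatric versus Young. The mitosis median from Old to Geriatric mice stayed below 0 in 25 alternatives, between -1.38 and -0.22. Where causes of these moves are not plain from fewer arrays or genes, the cause was not tested.

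Replicate numbers did not pair the arrays: deviations of same-numbered arrays correlated with a median r of -0.0255 over 26 pairs (-0.255 to 0.192), and others with 0.047 over 52. The deposited numbers are therefore not used as a block in the values above.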
